A study of Caenorhabditis elegans with 2 samples.

Results

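The condensin genes of Caenorhabditis elegans were followed through a map of EFL-1 on chromatin made by immunoprecipitation and sequencing (ChIP-seq). They were 9 of the 19973 protein-coding genes of the WBcel235 assembly and were chosen by symbol: smc-4, capg-2, hcp-6, kle-2, mix-1, capg-1, dpy-26, dpy-27 and dpy-28. The material was whole, mixed-sex L1 larvae of strain YL424, in which the unc-119(ed3) III mutation is complemented by unc-119 (+) on the transgene vrIs68. The transgene also carries EFL-1 joined to GFP and FLAG, read from an efl-1 promoter and followed by the efl-1 3′ UTR. There was 1 group of 2 biological replicate libraries, each with a size range of 150 to 350 bp, and no other stage, strain or treatment, so that no test between conditions could be made. The labels give efl-1 as the antibody and eGFP-efl-1 as the target of the experiment, and the native efl-1 gene is not said to be altered. Whole larvae were used, so a peak is an average over all their cell types.

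Condensins are ring-shaped ATPases that fold chromosomes. A pair of SMC proteins forms the arms, a kleisin closes the ring, and HEAT-repeat proteins bind the kleisin. In the worm, condensin I holds SMC-4, MIX-1, the kleisin DPY-26, DPY-28 and CAPG-1, and condensin II holds SMC-4, MIX-1, the kleisin KLE-2, HCP-6 and CAPG-2; both act in mitosis and meiosis. The dosage compensation complex contains a further condensin, in which DPY-27 takes the place of SMC-4 beside MIX-1, DPY-26, DPY-28 and CAPG-1. It binds both X chromosomes of hermaphrodites and lowers their expression. MIX-1, CAPG-1, DPY-26 and DPY-28 thus serve mitosis and dosage compensation, whereas DPY-27 belongs to the X-chromosome complex alone. EFL-1 is an E2F-family factor and a subunit of DREAM, a complex known for repressing cell-cycle genes in cells that do not divide. E2F proteins bind GC-rich elements, and the DREAM subunit LIN-54 binds a nearby element called CHR.

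The DNA under 6 peaks upstream of or at condensin genes, and under the peak of tasp-1, the gene just upstream of dpy-28, is given first, because the peaks differ in which of these elements they hold. The sequences come from the RefSeq copy of WBcel235, the ce11 sequence, and are written 5′ to 3′ on the strand of the gene. Capitals mark E2F cores, for which the accepted spellings were TTCCCGC, then also the spelling TTCGCGC, likewise the spelling TTGCCGC, and finally the spelling TTGGCGC, and CHR cores, spelled TTTGAA or as the palindrome TTCGAA. Cores were sought on both strands and printed here as they read on the strand of the gene. The smc-4 stretch is chrIII:4587331-4587416 on the plus strand, the capg-2 stretch chrV:12271612-12271712 plus, and the mix-1 stretch chrII:10824266-10824294 plus, inside the annotated 5′ UTR. The dpy-26 stretch is chrIV:12451385-12451485 on the minus strand, the kle-2 stretch chrIII:7940972-7941056 plus, the dpy-27 stretch chrIII:3820317-3820417 minus, and the tasp-1 stretch chrIII:10759197-10759297 plus. Each stretch except that of mix-1 contains the summit of its peak. The kle-2 stretch lies upstream of C29E4.12, the gene just before kle-2.
smc-4: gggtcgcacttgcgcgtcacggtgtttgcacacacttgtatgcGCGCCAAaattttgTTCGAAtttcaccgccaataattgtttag
capg-2: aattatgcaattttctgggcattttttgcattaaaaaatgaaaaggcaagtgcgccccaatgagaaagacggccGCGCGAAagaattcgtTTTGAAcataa
mix-1: aagacGCGCCAAaaaacaTTCAAAgctca
dpy-26: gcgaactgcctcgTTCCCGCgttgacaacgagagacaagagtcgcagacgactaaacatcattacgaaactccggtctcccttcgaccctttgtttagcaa
kle-2: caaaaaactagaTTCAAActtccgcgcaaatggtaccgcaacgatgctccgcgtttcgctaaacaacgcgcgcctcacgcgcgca
dpy-27: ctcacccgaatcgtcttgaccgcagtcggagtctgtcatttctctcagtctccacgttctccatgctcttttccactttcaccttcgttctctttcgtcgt
tasp-1: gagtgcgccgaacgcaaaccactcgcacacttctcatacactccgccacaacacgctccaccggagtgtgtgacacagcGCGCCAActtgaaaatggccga
The first 3 hold an E2F core followed by a CHR core a few bases away. Not printed are the peaks of hcp-6, with a CHR core alone within 50 bp of the summit, and of capg-1, with both cores 22 bp apart. The dpy-26 and tasp-1 stretches have an E2F core alone, the kle-2 stretch a CHR core alone, and the dpy-27 stretch has neither. The kle-2 stretch ends before a further CHR core, TTTGAA, which begins 36 bp downstream of the summit.

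The data were read in 4 lists: the entries of each replicate, the entries called on the pooled reads, and the reproducible peaks that the authors derived from these by the irreproducible discovery rate. A gene is called bound here if the promoter of any annotated transcript, taken as 500 bp before its start and 100 bp after it, held a reproducible summit. Summit positions are counted in bp from the annotated start, with a minus sign for upstream. The score is the authors' own value for each peak, and its scale was not given. The reproducible list held 3824 peaks with scores from 35.7 to 7157 and a median of 101. An entry of any q overlapped 2917 of these peaks in replicate 1 and 3815 in replicate 2, and 76.1% had both. A peak of the reproducible list, and so a bound gene, need not have an entry in replicate 1. The pooled list held 28550 entries, the replicate 1 list 30000 and the replicate 2 list 28686; these 3 also contain background, by their own names. Depth was unknown, since the lists carry no counts. At a −log10 q above 2, the replicate 1 list had 1196 entries and the replicate 2 list 12800, so support in replicate 1 was the harder to obtain. Scores in the replicate 1 list reached 1267 and in the replicate 2 list 6219, and values are compared only within a list.

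EFL-1 was found at the promoters of 6 of the 9 genes, and 14.8% of all protein-coding genes were bound (2947 of 19973). The 6 were hcp-6, smc-4, mix-1, capg-2, capg-1 and dpy-26. The top 20% of the reproducible list held 4 of their 6 peaks, and the peaks of 933 of the 2947 bound genes. The 6 condensin genes had a median score of 451, or 2.67 times the median of 169 over all bound genes. That ratio was 1.40 without replicate 2, 1.45 in the stronger 50% of peaks and 1.07 among peaks for which both libraries passed a −log10 q of 2, so it depended on the peaks compared. With 1000 bp upstream to 200 bp downstream of a start, 8 of the 9 had a summit, against 17.9% of all genes. Counting any pooled-list entry in the promoter, background included, 7 of the 9 had one, against 33.2% of all genes.

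**Figure D1:**
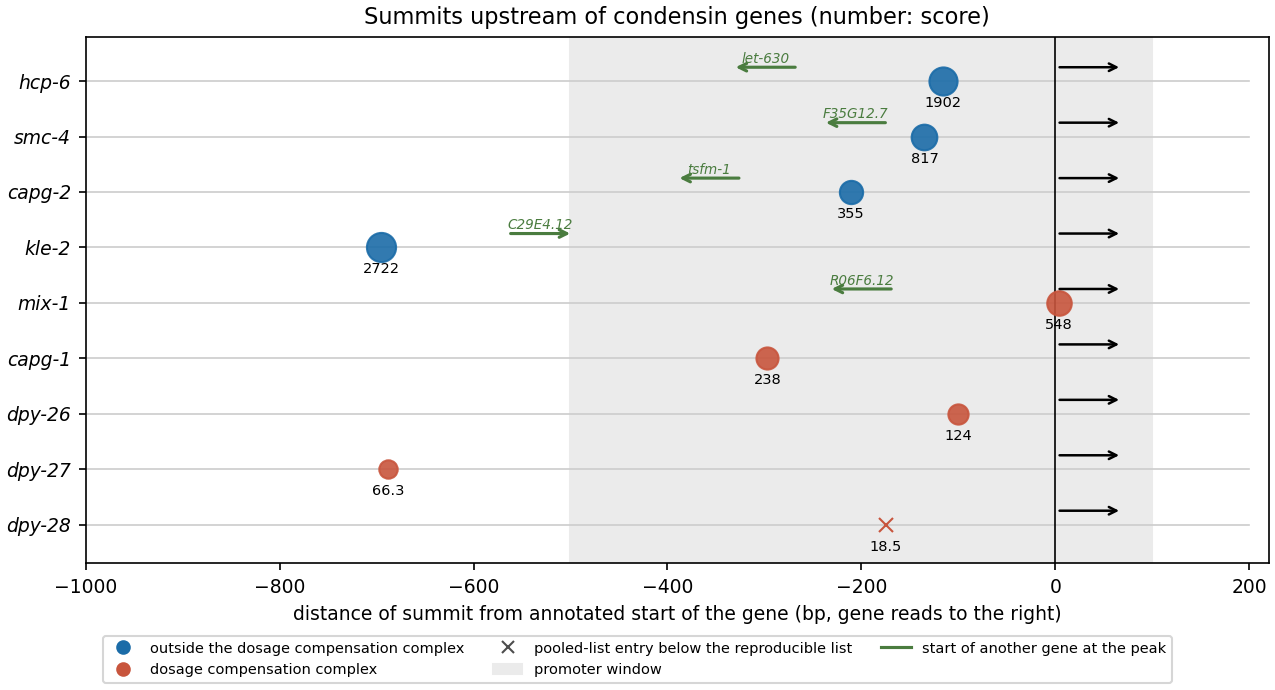
Position of the summit nearest each condensin gene in the ce11 build, in bp from its annotated start (all genes drawn reading to the right), with the score printed below each point and larger points for higher scores. Filled circles are reproducible peaks, the cross is a pooled-list entry that is not in the reproducible list, and green arrows are the starts of other genes with the same summit in their promoter. The grey promoter window holds 6 reproducible summits and the cross of dpy-28, and the summits of kle-2 and dpy-27 lie upstream of it.

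Among the subunits outside the dosage compensation complex, the bound genes were hcp-6, smc-4 and capg-2 (3 of 4). hcp-6 (WBGene00001833, chromosome I 5165148 to 5171313, plus strand) encodes a HEAT-repeat subunit of condensin II. Its promoter entry scored 318 in replicate 1 and 1586 in replicate 2, ranks 105 and 162 of those lists. In the pooled reads it scored 1902, rank 154 of the 3824 reproducible peaks, with the summit at −116 bp. That was the highest promoter score of the 9 genes in all 4 lists, 11.2 times the median bound gene, and rank 176 among the 2947 bound genes. The bound genes next to hcp-6 in score were hpo-9 and hyls-1, a ciliary and centriolar gene, which share a peak of 1928, and lem-4 at 1899; only this level was compared.

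smc-4 (WBGene00004874, chromosome III 4587501 to 4593124, plus strand) encodes the SMC subunit shared by condensins I and II and absent from the dosage compensation complex. It scored 79.2 in replicate 1, rank 556, and 741 in replicate 2, rank 402. The reproducible peak at 4587210 to 4587499 scored 817, rank 425, with its summit at −135 bp. capg-2 (WBGene00010093, chromosome V 12271873 to 12275658, plus strand), a HEAT-repeat subunit gene of condensin II, scored 65.1 in replicate 1 and 295 in replicate 2. Its reproducible peak at 12271543 to 12271805 scored 355, rank 741, with the summit at −211 bp. Both genes thus scored above the median bound gene, smc-4 by 4.83 times and capg-2 by 2.10 times.

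kle-2 (WBGene00016202, chromosome III 7941717 to 7945593, plus strand), the kleisin gene of condensin II, had no entry in its promoter in any of the 4 lists. A peak with a higher score than that of any of the 6 bound promoters lay just upstream of it, at 7940816 to 7941216. That peak scored 364 in replicate 1 and 2357 in replicate 2, and 2722 in the reproducible list, rank 66 or within the top 1.73% of peaks. Its summit was at −695 bp from the kle-2 start, and its near edge ended 1 bp short of the promoter window. The summit lies at −129 bp from the start of C29E4.12 (WBGene00016209, 7941151 to 7941614), a gene on the same strand that ends 102 bp before kle-2 begins.

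Among the subunits of the dosage compensation complex, mix-1, capg-1 and dpy-26 were bound (3 of 5). Each has a mitotic role as well, as has dpy-28, which was not bound. mix-1 (WBGene00003367, chromosome II 10824246 to 10841424, plus strand) encodes the SMC subunit common to all 3 condensins. It scored 47.8 in replicate 1, rank 767, and 494 in replicate 2, rank 533. Its reproducible peak at 10824117 to 10824380 scored 548, rank 558, and was 3.24 times the median bound gene. The summit lay at 4 bp, just inside a 5′ leader of 138 bp, whereas the other 5 bound promoters had summits from −297 to −100 bp.

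capg-1 (WBGene00009254, chromosome I 7634492 to 7639785, minus strand) encodes the HEAT-repeat subunit shared by condensin I and the dosage compensation complex. It scored 39.6 in replicate 1 and 196 in replicate 2, and its reproducible peak at 7639969 to 7640174 scored 238, rank 1001, with the summit at −297 bp. dpy-26 (WBGene00001085, chromosome IV 12445801 to 12451335, minus strand), the kleisin gene of the same complexes, scored 19.9 in replicate 1 and 109 in replicate 2. Its reproducible peak at 12451267 to 12451602 scored 124, rank 1640, the lowest of the 6 bound genes and 0.733 times the median bound gene. In replicate 1 the dpy-26 entry had a −log10 q of 1.45 and its summit lay 98 bp farther upstream than in the pooled reads. The bound genes next to dpy-26 in score, all at 124, were sop-2, Y55F3AM.13 and mrps-25.

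The remaining genes, dpy-27 and dpy-28, had no reproducible promoter peak. dpy-27 (WBGene00001086, chromosome III 3813018 to 3819679, minus strand) is the member that serves dosage compensation alone. The reproducible peak nearest its start, at 3820199 to 3820534, scored 66.3, rank 2599, with the summit at −688 bp and the near edge 20 bp short of the promoter. Replicate 2 held an entry of 77.0 there and replicate 1 none; replicate 1 had instead an entry at −135 bp, with a score of 14.6 and a −log10 q of 0.822. The replicates therefore placed different entries upstream of dpy-27.

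dpy-28 (WBGene00001087, chromosome III 10763131 to 10777076, plus strand) encodes a HEAT-repeat subunit shared by condensin I and the dosage compensation complex. Its promoter held entries of 7.23 in replicate 1 and 10.3 in replicate 2, and of 18.5 in the pooled list at rank 6445. The −log10 q of these entries was 0.148, 3.74 and 1.19, so the replicate 2 entry alone passed 2. These summits were at −245, −140 and −175 bp in that order, and none entered the reproducible list. The gene upstream of dpy-28 is tasp-1 (WBGene00010480, 10759307 to 10763021), which encodes a threonine aspartase, lies on the same strand and ends 109 bp before it. The promoter of tasp-1 held a peak of 3386, rank 27 of 3824, at 10759026 to 10759480, with scores of 604 in replicate 1 and 2777 in replicate 2. Its summit lay at −60 bp from the nearest tasp-1 start and −3884 bp from the start of dpy-28.

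**Figure D2:**
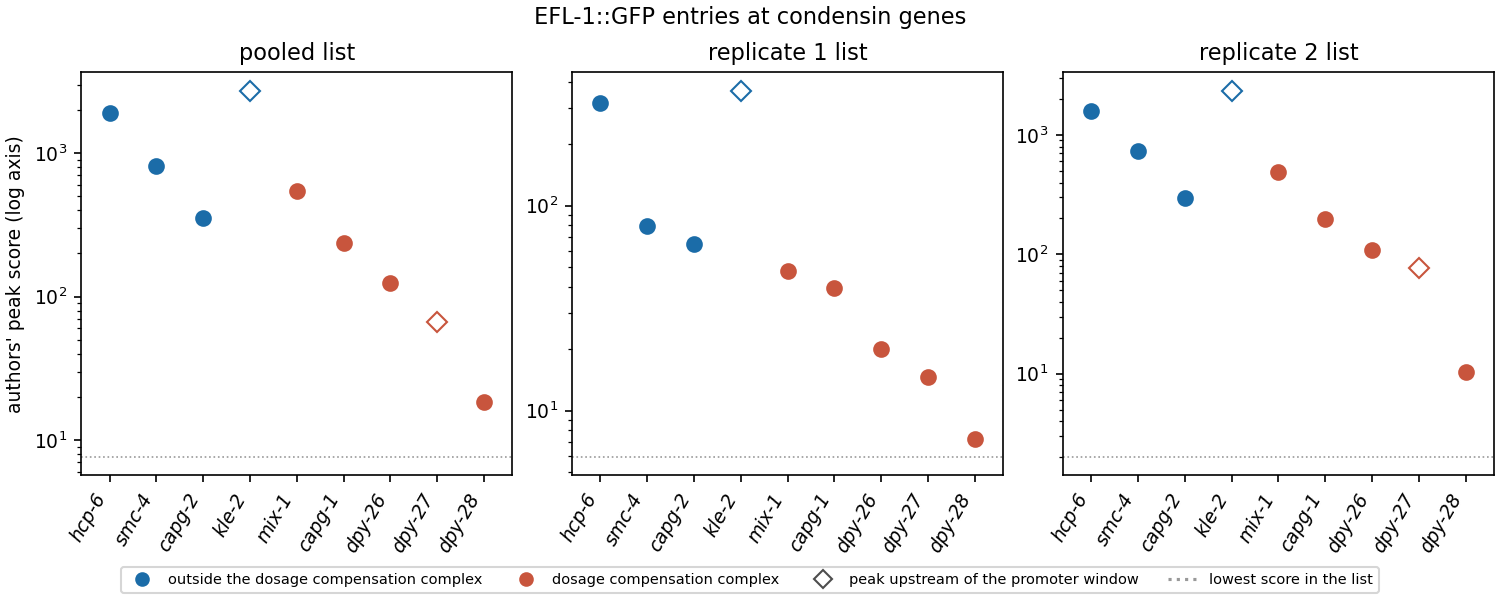
Authors' peak score on a log axis for each condensin gene in the pooled list and in each replicate list, with the lowest score of the list dotted. Filled circles are promoter entries and open diamonds are reproducible peaks upstream of the promoter window; hcp-6 has the highest promoter entry in every panel and dpy-28 the lowest, and each panel has its own scale.

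Set side by side, the bound subunits outside the dosage compensation complex scored 1902, 817 and 355, and those of the complex 548, 238 and 124. The medians were 817 and 238, a ratio of 3.43, and 4.83 and 1.41 times the median bound gene. The ranges overlapped, since mix-1 at 548 lay above capg-2 at 355. In replicate 1 that order was the other way, with capg-2 at 65.1 and mix-1 at 47.8, so the order of these neighbours differed between the libraries. The order hcp-6, smc-4, capg-1, dpy-26 was the same in both. With 3 genes in each set and no other condition, the difference between the sets was not tested. Adding the peaks upstream of kle-2 and dpy-27, at 2722 and 66.3, raised the ratio of medians to 7.51. The ratio was 2.08 among peaks supported in both libraries, which leave out dpy-26, and 7.99 when each summit went to the nearest start, which left hcp-6 alone in the first set.

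The 8 peaks at or near these genes were the 6 promoter peaks and those upstream of kle-2 and dpy-27, without that of tasp-1. These 8 could be followed in each library. An entry with a −log10 q above 2 lay over 6 of them in replicate 1 and over all 8 in replicate 2, so 75.0% had both, compared with 31.4% of the 3824 reproducible peaks (1200). The exceptions were dpy-26 and dpy-27. The shares were not compared at matched scores. In the top 20% were the peaks of 4 of the 6 bound genes and, at rank 66, the peak upstream of kle-2.

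**Figure D3:**
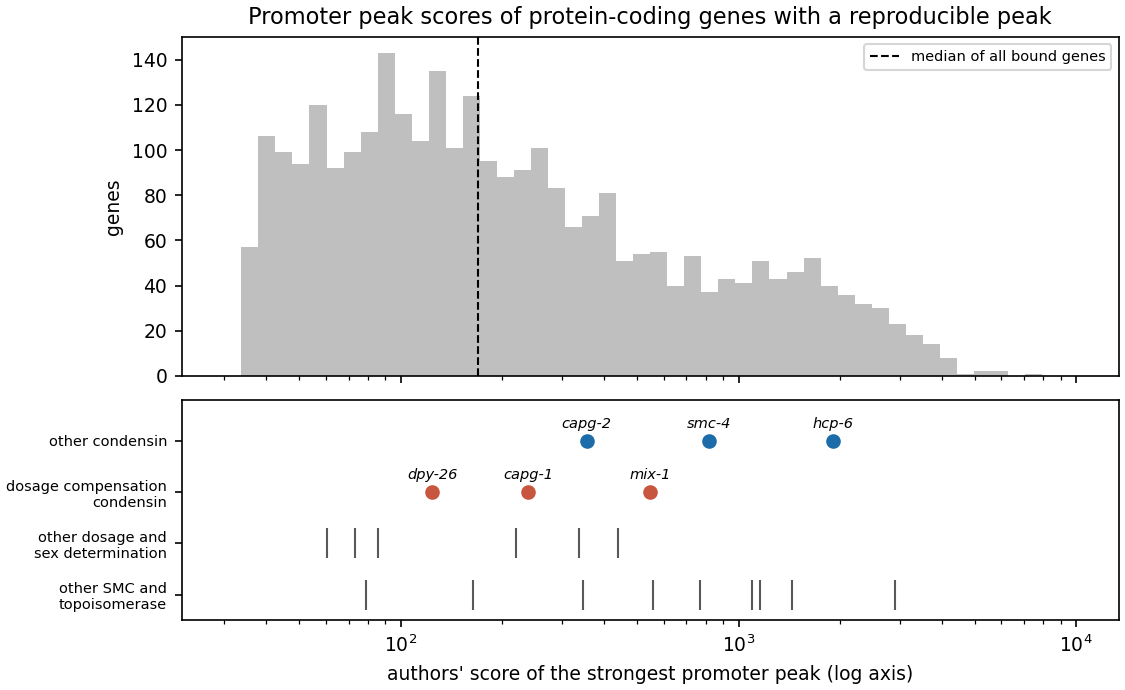
Histogram of the promoter score of the 2947 bound genes (log axis, median 169 dashed), with the bound condensin genes below it as points and the bound members of the comparison lists as ticks. The condensin genes span 124 to 1902, with dpy-26 left of the dashed median and the other 5 right of it.

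Most of the 6 promoter peaks had their summit in the promoters of 2 genes. The summits of hcp-6, smc-4, capg-2 and mix-1 also lay in the promoter of a gene that starts nearby and reads the other way, so 4 of the 6 peaks were shared, and 45.6% of all bound genes shared theirs (1343 of 2947). The partner of hcp-6 is let-630 (WBGene00002804), from whose start the summit is at −148 bp. That of smc-4 is F35G12.7 (WBGene00009443), at −36 bp. The partner of capg-2 is tsfm-1 (WBGene00010094), a mitochondrial translation factor gene, at −111 bp, and that of mix-1 is R06F6.12 (WBGene00023418), at −169 bp. The partner's start was the nearer for smc-4 and capg-2. The genes of these pairs are 164 to 321 bp apart, and a peak list cannot assign a shared peak to either. capg-1 and dpy-26 have a same-strand gene upstream, F26A3.1 at 562 bp and spe-44 at 727 bp, neither with a promoter peak, so their peaks were not shared.

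kle-2 and dpy-28 had the other arrangement, a same-strand neighbour that ends within 150 bp and carries a high-scoring peak, 2722 at C29E4.12 and 3386 at tasp-1. Of the 17026 unbound genes, 8.85% had a same-strand neighbour ending within 150 bp (1506), and the neighbour was bound for 38.8% of these (585). Worm genes so arranged are sometimes transcribed together as operons, but operons are not annotated in the sources used here and whether these pairs are cotranscribed was not tested. Counting a neighbour's peak, a rule chosen after the data were seen, would add both genes and bring the count to 8 of 9, and that of all genes to 3532. dpy-27 would stay the exception; its upstream neighbour amx-1 reads the other way, starts 2723 bp away and was not bound.

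The sequences under the peaks were then searched for cores. Within 50 bp of the summit, an E2F core was present at 5 of the 8 peaks, a CHR core at 6 and both at 4. Over all reproducible peaks the shares were 16.8%, 34.4% and 9.26%, over the top 20% of peaks 31.0%, 59.2% and 20.9%, and over promoters of unbound genes, in windows of the same length, 2.79%, 33.9% and 0.869%. The CHR share of all peaks was close to that of unbound promoters. That of the top 20% of peaks, which include the peak upstream of kle-2 and that of hcp-6, was higher. The 4 genes with both were smc-4, capg-2, mix-1 and capg-1. The E2F core came first and lay on the other strand in each, with the CHR core 7, 9, 6 and 22 bp further on. Cores at most 10 bp apart, a distance chosen after these were seen, occurred at 3 of the 8 peaks, at 6.64% of all peaks, at 14.8% of the top 20% and at 0.311% of unbound promoters.

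Peaks with both kinds of core were not those with the highest scores. The highest-scoring of the 8 peaks, those upstream of kle-2 and at hcp-6, held CHR cores and no E2F core of these spellings. The peak of dpy-26, with the lowest score among the bound genes, held the E2F core TTCCCGC and no CHR core within 50 bp. The peak upstream of dpy-27, with the lowest score of the 8 peaks, held neither. Outside the 50 bp window, CHR cores TTTGAA began 59 and 82 bp downstream of the dpy-26 summit. Within 100 bp of the summits, 5 of the 8 peaks held an E2F core, 7 a CHR core and 5 both. Over all reproducible peaks these shares were 21.5%, 52.9% and 14.6%, and over the top 20% of peaks 36.5%, 77.6% and 30.6%. Over unbound promoters, in windows of the same length, they were 5.63%, 55.5% and 2.80%. A match is a description of letters, not of a binding site, and the lack of a match says only that these letters are not in the window.

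**Figure D4:**
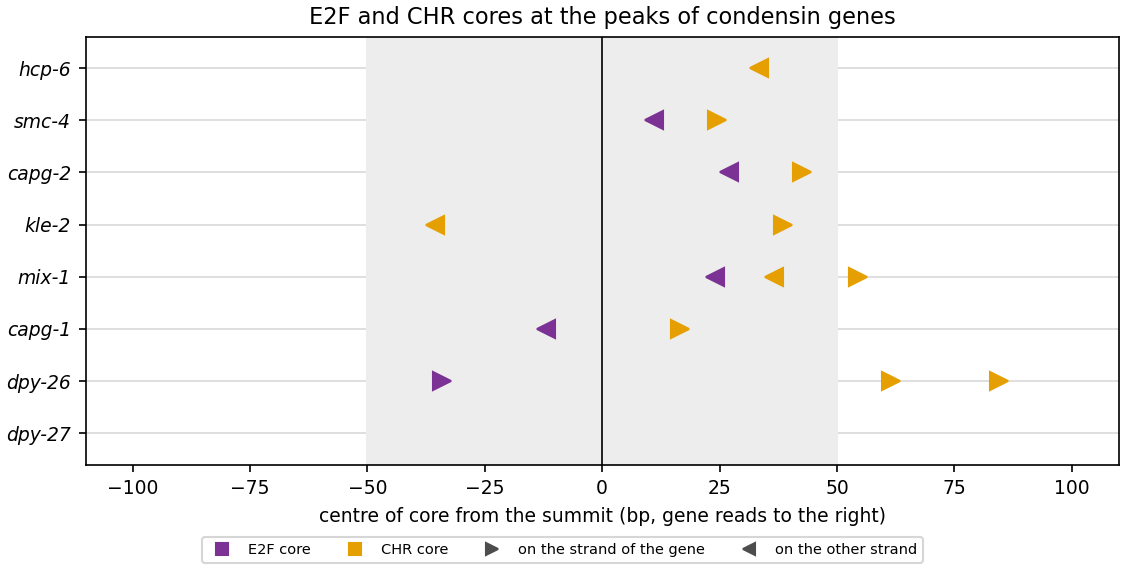
Centre of each E2F core (purple) and CHR core (orange) within 100 bp of the summit, in bp, with the gene reading to the right and triangles pointing along the strand of the core; the TTCGAA cores of smc-4 and mix-1 read the same on both strands. At smc-4, capg-2, mix-1 and capg-1 an E2F core and a CHR core fall inside the grey 50 bp window, and no core is drawn for dpy-27.

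Other genes of dosage compensation and sex determination, and of SMC complexes and topoisomerases, were read in the same way. Of 15 other dosage compensation and sex determination genes, 6 were bound (40.0%), compared with 14.8% of all protein-coding genes. These 6 genes had scores from 60.6 to 440 and a median of 153, or 0.903 times the median bound gene. They were set-4, a histone H4 methyltransferase gene (440), dpy-30, which encodes a subunit of dosage compensation and of histone H3 methyltransferase complexes (336), and ceh-39, an X-linked signal of chromosome number (220). sdc-1 scored 85.5, xol-1, the switch gene of sex determination, 72.9, and sdc-3 60.6, and none of these 3 reached a −log10 q of 2 in replicate 1. There the sdc-1 and xol-1 entries had a −log10 q of 0.153 and 1.32, and sdc-3 had no entry over its peak. sdc-2, whose product brings the complex to X, was not bound, nor were dpy-21, sex-1, fox-1, sea-1, sea-2, her-1, tra-1 and tra-2. Of the bound dosage compensation condensins, mix-1 at 548 lay above every gene of this list, and capg-1 at 238 and dpy-26 at 124 lay within its range.

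Of 16 other SMC complex and topoisomerase genes, 9 were bound (56.2%), compared with 14.8% of all protein-coding genes. These 9 had a median of 769, or 4.55 times the median bound gene. The peaks of 7 of them were in the top 20%, as were those of 933 of the 2947 bound genes. The highest was top-2, a topoisomerase II gene, at 2904, on a peak shared with npp-3. The cohesin genes scc-1 (1437, shared with rpn-5) and smc-3 (1099, shared with mib-1 and gly-9) followed, with wapl-1, the cohesin release factor gene (1155, shared with htz-1). scc-2, a cohesin loader gene, scored 769, smc-5 557 and smc-6 346, while scc-3 (164, shared with abcf-1) and mau-2 (79.1) lay below the median bound gene. In replicate 1 the scc-3 entry had a −log10 q of 0.732 and so did not reach 2. him-1, evl-14, rec-8, coh-3, coh-4, top-1 and top-3 were not bound. With the wider promoter, from 1000 bp upstream to 200 bp downstream, him-1, evl-14 and coh-3 also had a peak. That made 12 of 16, against 17.9% of all genes. hcp-6, smc-4 and capg-2, with a median of 817, fell within the range of this list, and the lists were not tested against each other.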

How the data were processed

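EFL-1 binding in 2 biological replicate libraries of whole L1 larvae was read from 4 lists in the ce11 build. According to text files deposited alongside both libraries, entries were called on each replicate and on the pooled reads against a control alignment, and a reproducible (optimal) list was derived from them through the irreproducible discovery rate. The peak caller, the aligner and the threshold are not given in the sources used here. The score in the seventh column was deposited by the authors without a scale. The −log10 q-value was deposited by the authors in the ninth column and the summit offset, in bp, in the tenth. Scores served to describe and rank peaks within a list. Signal tracks, the control and the lists of the older build were not used here. The lists hold no read counts, so depth is unknown and no interval is given.

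Starts came from Ensembl release 115 of WBcel235, and sequence from the RefSeq copy of that assembly. A replicate entry supported a peak when it overlapped it by at least 1 bp. Unbound promoters were represented by the 101 bp centred 150 bp upstream of the start. The code was checked on simulated data. Python 3.11.15, numpy 2.4.6, pandas 2.3.3 and matplotlib 3.10.9 were used. The members, the comparison lists and the cores were chosen with earlier results of these data known, so no p-value is given. Named genes were all 9 members, genes whose promoter holds a member's summit, bound genes of the comparison lists, and the bound genes next in score to the strongest and weakest bound member. Upstream neighbours without a shared peak, unbound genes of the lists and genes that share a peak with a listed gene were named after their values were seen. Alternatives changed the peak threshold, the replicates used, the promoter, the assignment of summits to genes, the overlap and the sequence window.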

Additional observations from a re-analysis of the deposited data

How the results depend on the processing

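Depth is unknown, a score is 1 value per list, and the 2 libraries differ in length of supported list, so a missing entry in replicate 1 may be a limit of that library. Under the alternatives tried, 4 to 8 of the 9 condensin genes were bound, and the condensin median stayed above that of all bound genes and the median of the genes outside the dosage compensation complex above that of the complex. The shares bound in the 2 sets, 3 of 4 and 3 of 5, changed order with the nearest start (1 of 4 and 3 of 5), without replicate 2 and with any pooled-list entry (3 of 4 and 4 of 5 in both). Some values moved, and the cause was not tested except where named. With the stronger 50% of peaks, the condensin median over that of all bound genes was 1.45 in place of 2.67, since weak peaks leave the denominator, and 3 other dosage compensation and sex determination genes were bound in place of 6. Requiring a −log10 q above 2 in each replicate gave 1.07, a ratio of 2.08 between the condensin sets in place of 3.43, 3 of those genes and 1385 bound genes in all; dpy-26 was lost. Any pooled-list entry gave 14.5 and 6633 genes, and added dpy-28. The wider promoter gave a set ratio of 7.51 with kle-2 and dpy-27 added. The narrower promoter, from 250 bp upstream to 50 bp downstream, lost capg-1 and left 3 dosage compensation and sex determination genes and 5 SMC and topoisomerase genes in place of 9. Giving each summit to the nearest start left hcp-6 as the 1 bound gene outside the dosage compensation complex and a ratio of 7.99, since smc-4 and capg-2 lost their peaks to their partners. Using either replicate alone gave a median ratio of 1.40 to 2.71, a set ratio of 2.66 to 3.77 and 6 to 7 bound condensin genes. The seventh, in replicate 1 alone, was dpy-27, at a promoter score of 14.6, and in replicate 1 capg-2 scored above mix-1. The promoter entries of dpy-28, 7.23 in replicate 1 and 10.3 in replicate 2, did not count as bound there. These counts did not follow the −log10 q. The dpy-27 entry counted at rank 2484 of replicate 1, with a −log10 q of 0.822. The dpy-28 entries did not, at rank 19897 of replicate 1 (0.148) and rank 8338 of replicate 2 (3.74). No paired analysis was possible because there is 1 group.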

Other observations

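A further reproducible peak lay inside mix-1, at chromosome II 10840211 to 10840316 in the ce11 build, 16038 bp from the start of the gene. It scored 141, rank 1466 of 3824, and its summit was at −33 bp from the start of the snoRNA gene M106.6 (10840317 to 10840391, plus strand). Replicate 2 held an entry of 135 there with a −log10 q of 4.22, whereas the replicate 1 entry scored 6.44 with a −log10 q of 0.114.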
